A study of Mus musculus with 6 samples.

Results

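The miR-30 family was followed in small extracellular vesicles (sEV) shed by cochlear explants, pieces of the inner ear's sensory tissue kept in culture. The members were chosen by name, as the 5p and 3p arms of miR-30a to miR-30e, and all 9 of them are among the 810 miRNAs of the deposited count table. They comprise 5 arms from the 5p side of the hairpin and 4 from the 3p side. Of these, 8 had enough reads to be tested between the groups, and mmu-miR-30d-3p did not.

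The explants came from ICR mice at postnatal day 3. They recovered overnight and were then given 50 µM cisplatin, a platinum drug that damages hair cells, or the same volume of PBS for 48 h. Vesicles from the cisplatin cultures are called Cis-sEV and those from the PBS cultures Ctrl-sEV, with 3 libraries in each group. Both groups were grown in DMEM/F12 with ampicillin and fetal bovine serum depleted of sEV. Each library pools the vesicles of about 80 explants, so it averages over many cells and animals. Levels here are shares of a library's miRNA reads, so neither vesicle number nor the amount of a miRNA per vesicle can be read from them. The paper counted vesicle particles per explant and reported that the groups did not differ statistically.

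A miRNA hairpin is cut by Drosha and then Dicer into a short duplex, of which one strand, the guide, is loaded into an Argonaute protein while the other, the passenger, is usually lost. Bases 2 to 8 of the loaded strand, the seed, decide most of its targets, so arms with the same seed are counted as one family. miR-30 is broadly expressed in epithelia and other tissues and is known for targeting Ubc9, Becn1 and the EMT factor Snai1. Members named with different letters come from different hairpins, and mmu-miR-30c-5p is made from both the Mir30c-1 and the Mir30c-2 hairpin.

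The sequences below show how the arms fall into seed groups. They are RefSeq sequences on GRCm38.p6, written 5′ to 3′ with the seed in capitals, and 6 of the 9 members matched an entry, each equal to the sequence in the deposited table.
mmu-miR-30a-5p: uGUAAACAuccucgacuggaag
mmu-miR-30e-5p: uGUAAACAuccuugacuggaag
mmu-miR-30c-5p: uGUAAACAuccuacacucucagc
mmu-miR-384-5p: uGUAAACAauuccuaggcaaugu
mmu-miR-30a-3p: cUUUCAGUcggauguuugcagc
mmu-miR-30e-3p: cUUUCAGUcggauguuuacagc
mmu-miR-30c-2-3p: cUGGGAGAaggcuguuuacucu
mmu-miR-30c-1-3p: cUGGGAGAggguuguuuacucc

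The seed GUAAACA was shared by 6 miRNAs of the table, the 5 miR-30 5p arms and mmu-miR-384-5p, which comes from a separate X-linked hairpin. On the 3p side, UUUCAGU was shared by the 3p arms of miR-30a, miR-30d and miR-30e, and UGGGAGA by those of miR-30c-1 and miR-30c-2. Counted from 1 at the 5′ end, mmu-miR-30a-5p and mmu-miR-30e-5p differ by C13U alone, and mmu-miR-30a-3p and mmu-miR-30e-3p by G18A alone. Arms that differ by 1 base could exchange reads in the counting, so the split between them is uncertain.

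The hairpins of miR-30a and miR-30e are shown whole, with both arms in capitals, because the reads counted for them lay mostly on the 3p arm.
Mir30a, chr1:23272269-23272339, plus strand: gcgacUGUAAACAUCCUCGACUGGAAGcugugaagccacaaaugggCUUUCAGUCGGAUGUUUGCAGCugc
Mir30e, chr4:120772606-120772697, minus strand: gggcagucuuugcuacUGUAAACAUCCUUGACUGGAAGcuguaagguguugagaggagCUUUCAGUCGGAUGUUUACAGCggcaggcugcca

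In GENCODE M21, Mir30e and Mir30c-1 (chr4:120769534-120769622, minus strand) both lie in introns of Nfyc, which encodes a subunit of the NF-Y transcription factor. Mir30c-2 (chr1:23291701-23291784, plus strand) lies in an exon of the lincRNA Gm27028. No other gene overlapped Mir30a.

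Each Cis-sEV library held 1722359 to 1794175 miRNA reads, and each Ctrl-sEV library 528952 to 718597. Levels are given in CPM (counts per 1e6 miRNA reads of the library), scaled by the TMM factors of edgeR unless stated otherwise. A library with 0 reads could still hold a miRNA at 1.42 to 1.59 CPM in Cis-sEV and at 4.20 to 7.31 CPM in Ctrl-sEV, the level of 3 reads, which covers counting error only. Among miRNAs that mark cell types, those of hair cells (the miR-183 cluster) summed to 50138 to 73508 CPM in Cis-sEV and 56046 to 73319 CPM in Ctrl-sEV. Of these 3, mmu-miR-96-5p was called higher (log2 fold change 2.08, edgeR adjusted p = 0.0142), mmu-miR-183-5p stood at -0.49 (edgeR adjusted p = 0.0419) and mmu-miR-182-5p at 0.18. The 4 erythrocyte and serum miRNAs summed to 2092 to 2269 CPM against 8331 to 12688 CPM, and 3 of them were called lower in Cis-sEV, while mmu-miR-144-3p had 0 reads in Ctrl-sEV. The authors removed the spiral ganglion at dissection. The neuronal list summed to 1697 to 1988 against 1236 to 1524 CPM, with mmu-miR-124-3p at 0 in Ctrl-sEV. Its other miRNAs were not called, mmu-miR-9-5p at 0.15 (edgeR adjusted p = 0.705) and mmu-miR-128-3p at 1.64 (edgeR adjusted p = 0.51). The 2 leukocyte miRNAs summed to 231 to 331 against 267 to 580 CPM. The mesenchymal list summed to 4658 to 8138 against 2142 to 4805 CPM, and 0 of its 4 miRNAs were called. Of these, mmu-miR-199a-3p had 574, 6515 and 345 reads in Cis-sEV and 580, 1 and 781 in Ctrl-sEV, and mmu-miR-143-3p stood at 0.77 (edgeR adjusted p = 0.0141). The part of these shifts in the miR-30 values was not tested.

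The sum of the miR-30 5p arms was higher in every Cis-sEV library than in any Ctrl-sEV library, and most of it was mmu-miR-30d-5p, while the sum of the 3p arms overlapped between the groups. Taken singly, 3 of the 5 5p arms overlapped as well, and none was called. Summed over the 5 arms, the 5p side held 7321, 5794 and 6708 CPM in the Cis-sEV libraries and 3062, 3811 and 3270 CPM in the Ctrl-sEV libraries. The ratio of the group means was 1.95, and the groups did not overlap. Of all 353 single miRNAs tested, 37.7% likewise had every Cis-sEV library above every Ctrl-sEV library. The 4 3p arms together held 2326, 1644 and 2047 CPM in Cis-sEV and 2016, 2391 and 2426 CPM in Ctrl-sEV, a ratio of 0.881 with overlapping groups. As a share of all miRNA reads, with no further scaling, the 5p arms made up 0.636 to 0.813% of a Cis-sEV library and 0.233 to 0.380% of a Ctrl-sEV library. No p is given for these sums, since the members were chosen with earlier results of these data known.

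**Figure D1:**
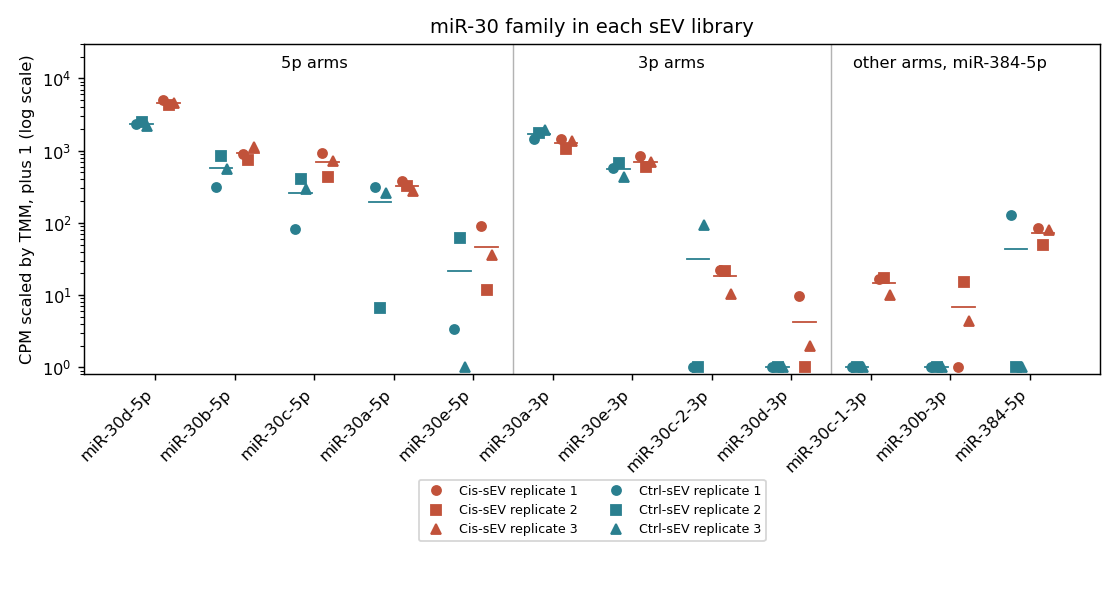
CPM scaled by TMM plus 1 (log axis) of each miR-30 arm and of miR-384-5p in the 3 Cis-sEV and 3 Ctrl-sEV libraries, one symbol per library, with a bar at the group mean. miR-30d-5p is the highest arm in all 6 libraries, at 4308 to 5036 CPM in Cis-sEV and 2175 to 2512 CPM in Ctrl-sEV, and several low arms sit at 0 CPM in Ctrl-sEV libraries.

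None of the 9 members was called by edgeR's quasi-likelihood test, where a call needs an adjusted p up to 0.05 together with a log2 fold change of 1 or more in either direction. Over all 353 miRNAs tested, 23.5% were called higher in Cis-sEV and 6.52% lower. Some of those called higher, such as mmu-miR-195a-5p and mmu-miR-124-3p, had 0 reads in every Ctrl-sEV library. They had enough reads for a test through Cis-sEV alone, and the shares and medians over all tested miRNAs include them. At an unadjusted p under 0.05 there was 1 member, mmu-miR-30d-5p, beside 147 of the 353 miRNAs. DESeq2 and limma-voom also called 0 members with both limits, and a test on counts summed over each group, which has no replicate spread, called 4, all of them 5p arms and higher. The 5 5p arms had log2 fold changes of 0.70 to 1.41 with a median of 0.98, and the 3 tested 3p arms -0.85 to 0.34 with a median of -0.40, beside a median of 0.44 over all tested miRNAs. Without TMM factors that overall median was 0.80. Relative to the overall median, mmu-miR-30d-5p lay 0.52 to 0.54 higher under each of the 5 scalings, and mmu-miR-30a-3p 0.84 to 0.88 lower.

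**Figure D2:**
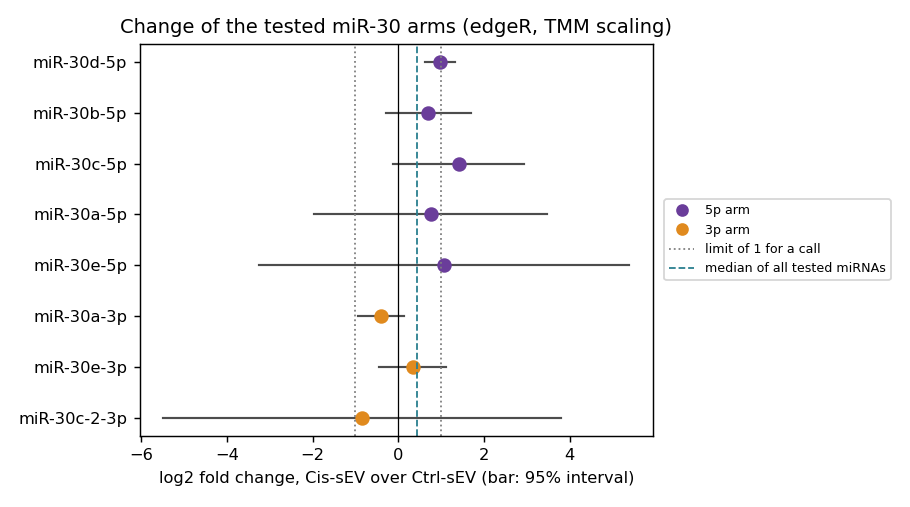
Log2 fold change of the 8 tested miR-30 arms, Cis-sEV over Ctrl-sEV, with 95% intervals from edgeR, beside 0, the limit of 1 and the median of all tested miRNAs. The interval of miR-30d-5p, 0.63 to 1.33, is the narrowest and the only one above 0, and those of miR-30e-5p and miR-30c-2-3p span several log2 units.

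mmu-miR-30d-5p had more reads than any other member in each of the 6 libraries. It had 10006, 8127 and 9649 reads in Cis-sEV and 966, 1796 and 1052 in Ctrl-sEV, which is 5036, 4308 and 4565 CPM against 2355, 2512 and 2175 CPM. The lowest Cis-sEV library exceeded the highest Ctrl-sEV library, and the libraries of a group lay close together, with coefficients of variation of 7.97% and 7.19%. The means were 4636 ± 369.7 CPM (SD, n = 3) and 2348 ± 168.7 CPM (SD, n = 3). Its log2 fold change was 0.98 (standard error 0.15, 95% interval 0.63 to 1.33), with an adjusted p of 0.0053 from edgeR. It thus passed the limit on p and fell just short of that on fold change, and 26.3% of all tested miRNAs were higher at that p with no limit on fold change. With total miRNA reads in place of TMM factors the value was 1.32 and passed both limits. Leaving out Cis-sEV replicate 1 took it to 0.76 with an adjusted p of 0.0642, and DESeq2 fitted on all 810 miRNAs, a setting chosen after seeing the data, gave 0.91 with an adjusted p of 0.213. Leaving out Cis-sEV replicate 3, Ctrl-sEV replicate 2 or Ctrl-sEV replicate 3 took it to 1.09, 1.12 and 1.02, past both limits. In each library it ranked between 37 and 52 among all miRNAs.

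The miR-30b and miR-30c 5p arms came next on the 5p side. mmu-miR-30b-5p had 1801, 1376 and 2388 reads in Cis-sEV and 130, 597 and 265 in Ctrl-sEV. Scaled, it stood at 907, 729 and 1130.0 CPM against 317, 835 and 548 CPM, and Ctrl-sEV replicate 2 lay above Cis-sEV replicate 2. The log2 fold change, 0.70 with a standard error of 0.42, did not pass edgeR's test (adjusted p = 0.277). It was 0.35 without Ctrl-sEV replicate 1 and 1.14 without Ctrl-sEV replicate 2.

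mmu-miR-30c-5p, the arm shared by both miR-30c hairpins, had 1825, 821 and 1515 reads in Cis-sEV and 33, 290 and 141 in Ctrl-sEV. In CPM these were 919, 435 and 717 against 80.5, 406 and 292, so the groups were separate, though by a narrow gap between Cis-sEV replicate 2 and Ctrl-sEV replicate 2. It had the largest log2 fold change of the tested members, 1.41 (standard error 0.65, 95% interval -0.12 to 2.94), and did not pass the test (adjusted p = 0.153 from edgeR). Without Ctrl-sEV replicate 1, the lowest library, the value was 0.92, and without Ctrl-sEV replicate 2 it was 1.90. Of the 8 tested members, mmu-miR-30c-5p and mmu-miR-30d-5p had all Cis-sEV libraries above all Ctrl-sEV libraries and 0 had them below, beside 37.7% and 12.5% of all tested miRNAs.

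The 5p arms of miR-30a and miR-30e were low and irregular in Ctrl-sEV. mmu-miR-30a-5p had 762, 603 and 577 reads in Cis-sEV and 129, 4 and 126 in Ctrl-sEV. Its levels of 384, 320 and 273 CPM in Cis-sEV overlapped those of Ctrl-sEV, which were 315, 5.60 and 261 CPM. With all libraries the log2 fold change was 0.75, with a standard error of 1.15 and an edgeR adjusted p of 0.723. It was 0.28 without Ctrl-sEV replicate 2, the library with 4 reads. limma-voom gave 2.39 and the replicate block 1.55, neither past the test. In CPM without TMM factors the groups were separate, at 322 to 425 in Cis-sEV against 5.57 to 239 in Ctrl-sEV. mmu-miR-30e-5p had 176, 20 and 73 reads in Cis-sEV and 1, 43 and 0 in Ctrl-sEV. Its fold could not be fixed from these counts, with a log2 fold change of 1.07 and a 95% interval from -3.24 to 5.39. Leaving out Cis-sEV replicate 1 gave -0.22, leaving out Ctrl-sEV replicate 2 gave 5.30, and neither value passed the test.

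The makeup of the 5p side overlapped between the groups. mmu-miR-30d-5p took 68.7, 74.2 and 67.9% of the 5p reads in Cis-sEV and 76.7, 65.8 and 66.4% in Ctrl-sEV. mmu-miR-30b-5p took 12.4 to 16.8% and 10.3 to 21.9%, and mmu-miR-30c-5p 7.50 to 12.5% and 2.62 to 10.6%. The ranges overlapped for each of the 5 arms, and they were wider in Ctrl-sEV, where a library held 1259 to 2730 reads of the 5p arms against 10947 to 14570 in Cis-sEV. With the near-identical miR-30a, miR-30d and miR-30e 5p arms taken as 1 unit, which leaves aside how reads were split among them, the levels were 5499, 4631 and 4865 CPM in Cis-sEV and 2666, 2573 and 2432 CPM in Ctrl-sEV. The ratio of means was 1.95 for this unit and 1.95 for the miR-30b and miR-30c 5p arms together, which stood at 1822, 1163 and 1844 against 396, 1238 and 838 CPM. The former did not overlap between the groups and the latter did.

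The 3p arms of miR-30a and miR-30e, the abundant ones of that side, did not pass the test. mmu-miR-30a-3p had 2913, 1958 and 2848 reads in Cis-sEV and 593, 1235 and 924 in Ctrl-sEV. After scaling it stood at 1466, 1038 and 1347 CPM against 1446, 1728 and 1911 CPM, so that 2 of the 3 Ctrl-sEV libraries lay above every Cis-sEV library. Its log2 fold change was -0.40 (standard error 0.23, 95% interval -0.94 to 0.14, adjusted p = 0.261 from edgeR). The sign was negative under every scaling run, from -0.64 with upper-quartile factors to -0.07 with total miRNA reads.

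mmu-miR-30e-3p had 1657, 1109 and 1464 reads in Cis-sEV and 236, 478 and 206 in Ctrl-sEV. These were 834, 588 and 693 CPM against 575, 669 and 426 CPM, and the groups overlapped. The difference was 0.34 on the log2 scale with a standard error of 0.33 (edgeR adjusted p = 0.56), and 0.03 without Cis-sEV replicate 1.

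The other 3p arms were rare. mmu-miR-30c-2-3p had 42, 39 and 20 reads in Cis-sEV and 0, 0 and 45 in Ctrl-sEV. Its level was 21.1, 20.7 and 9.46 CPM against 0, 0 and 93.0 CPM, so a single library held all of its Ctrl-sEV reads. The log2 fold change, -0.85 with a standard error of 1.96 (edgeR adjusted p = 0.826), rested on that library, without which the miRNA had 0 reads in Ctrl-sEV. mmu-miR-30d-3p had 17, 0 and 2 reads in Cis-sEV and 0 in Ctrl-sEV, too few for a test. Of its 19 reads, 17 came from Cis-sEV replicate 1, and its partner arm mmu-miR-30d-5p had 27782 reads in the same libraries.

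The other 3p arms of the family, outside the 9 members, had reads in Cis-sEV libraries and none in Ctrl-sEV. mmu-miR-30c-1-3p had 31, 31 and 19 reads in Cis-sEV and 0 in each Ctrl-sEV library. With the whole Ctrl-sEV group set at a floor of 3 reads, it was 9.09-fold higher per miRNA read, without TMM factors. That floor covers counting error only, and Ctrl-sEV libraries differed by more than that, so the fold is not a firm lower bound. The fold was 5.44 without Ctrl-sEV replicate 2, since the floor then stands over fewer reads. mmu-miR-30c-1-3p passed the filter on low counts through its Cis-sEV reads alone. Its edgeR call as higher thus supports nothing, and it is given here as a description. limma-voom (adjusted p = 0.0998) and the replicate block in edgeR (adjusted p = 0.161) did not call it. mmu-miR-30b-3p, with 0, 27 and 7 reads in Cis-sEV and none in Ctrl-sEV, was not tested. mmu-miR-384-5p, which shares the miR-30 seed, had 169, 91 and 164 reads in Cis-sEV and 52, 0 and 0 in Ctrl-sEV. Its difference on the log2 scale was 0.74 with a standard error of 2.15 (edgeR adjusted p = 0.861), and Ctrl-sEV replicate 1 held all its Ctrl-sEV reads.

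The 6 most abundant members came in the same order in both groups. The arms are 22 or 23 nt long, so length hardly enters their CPM, but how well each sequence was ligated and amplified was not measured, and the order is one of reads. In Cis-sEV, mmu-miR-30d-5p (mean 4636 CPM) was followed by mmu-miR-30a-3p (1284 ± 221 CPM), mmu-miR-30b-5p (922 ± 201 CPM), mmu-miR-30e-3p (705 ± 124 CPM), mmu-miR-30c-5p (690.1 ± 243 CPM) and mmu-miR-30a-5p (325 ± 55.5 CPM), each as mean ± SD of 3 libraries. The steps below mmu-miR-30d-5p overlapped in range from one arm to the next down to mmu-miR-30c-5p, and mmu-miR-30a-5p lay below all of these. In Ctrl-sEV the order was mmu-miR-30d-5p (2348 CPM), mmu-miR-30a-3p (1695 ± 234 CPM), mmu-miR-30b-5p (567 ± 259.6 CPM), mmu-miR-30e-3p (557 ± 122 CPM), mmu-miR-30c-5p (259 ± 165 CPM) and mmu-miR-30a-5p (194 ± 165 CPM). There mmu-miR-30d-5p and mmu-miR-30a-3p were separate from each other and from the rest. Lower down, mmu-miR-30e-3p (lowest library 426 CPM) lay just above mmu-miR-30c-5p (highest library 406 CPM), and the other neighbours overlapped.

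The balance between 5p and 3p reads of the family differed between the groups. The 5p arms had 3.15, 3.52 and 3.28 reads for each read of the 4 3p arms in Cis-sEV and 1.52, 1.59 and 1.35 in Ctrl-sEV. Put as a share, the 3p arms took 22.1 to 24.1% of the members' reads in a Cis-sEV library, against 38.6 to 42.6% in a Ctrl-sEV library. The groups did not overlap, and a ratio within a library does not depend on library size or on the scaling. How often such ratios of other families separate the groups was not computed. Among single tested miRNAs, 37.7% lay above and 12.5% below in all Cis-sEV libraries. With mmu-miR-30d-5p left out, the ratio was 0.986, 0.908 and 1.05 against 0.353, 0.545 and 0.453, again without overlap. The 2 most abundant members, mmu-miR-30d-5p and mmu-miR-30a-3p, stood to each other at 3.43, 4.15 and 3.39 in Cis-sEV and 1.63, 1.45 and 1.14 in Ctrl-sEV. These ratios were chosen after the values had been seen and are given without a test. They set arms of different hairpins against each other, and show unequal change, not which side changed.

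**Figure D3:**
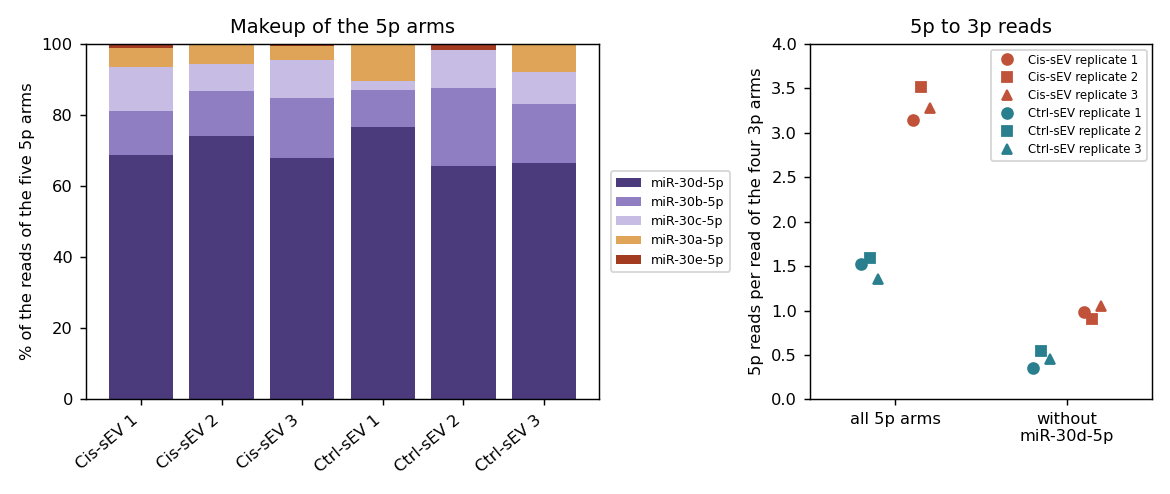
Left, share in % of each 5p arm among the reads of the 5 miR-30 5p arms, one bar per library. Right, reads of the 5p arms per read of the 4 3p arms, with and without miR-30d-5p, one symbol per library; the Cis-sEV libraries lie at 3.15 to 3.52 and 0.908 to 1.05, above the Ctrl-sEV libraries at 1.35 to 1.59 and 0.353 to 0.545, while the shares of each 5p arm overlap.

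Within each hairpin, as its reads were counted, the same arm prevailed in all 6 libraries. In miR-30a the 3p arm held 79.3, 76.5 and 83.2% of the reads of both arms in Cis-sEV and 82.1, 99.7 and 88.0% in Ctrl-sEV, where 95% Wilson intervals over all 6 libraries spanned 74.8 to 99.9%. In miR-30e it held 90.4, 98.2 and 95.3% in Cis-sEV and 99.6, 91.7 and 100% in Ctrl-sEV. Both hairpins thus gave mostly 3p reads in every library, the arms printed second in the hairpins above. In miR-30d the 3p arm held 0 to 0.170% of the reads in Cis-sEV and 0 in Ctrl-sEV, where 0 reads allow an upper Wilson bound of 0.213 to 0.396%. In miR-30c-2, set against mmu-miR-30c-5p, it held 1.30 to 4.53% in Cis-sEV and 0, 0 and 24.2% in Ctrl-sEV. The 3p arm of miR-30b held 0 to 1.92% in Cis-sEV and 0 in Ctrl-sEV.

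**Figure D4:**
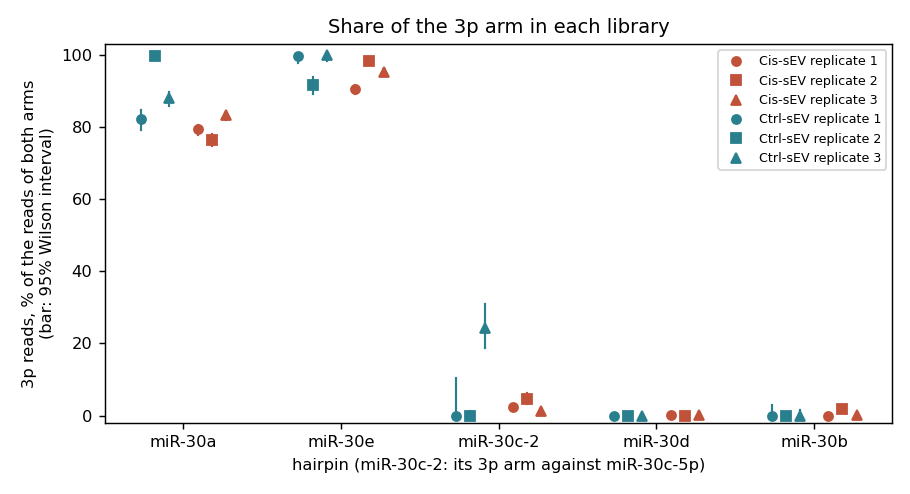
Reads of the 3p arm as % of the reads of both arms of each hairpin, one symbol per library with its 95% Wilson interval, in Cis-sEV and Ctrl-sEV. As counted, the 3p arm prevails in miR-30a and miR-30e, at 76.5 to 100%. The 5p arm prevails in miR-30c-2, miR-30d and miR-30b, at 3p shares of 0 to 24.2%, and the groups overlap in each hairpin.

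The 3p share did not separate the groups in any of these hairpins. The mean log2 ratio of 3p to 5p reads, with 0.5 read added to each, differed, Cis-sEV minus Ctrl-sEV, by -2.41 for miR-30a (two-sided exact permutation test, p = 0.2), -2.05 for miR-30e (exact p = 0.3), -0.43 for miR-30d (exact p = 0.7), 0.29 for miR-30c-2 (exact p = 0.9) and 0.51 for miR-30b (exact p = 0.9). Adjusted over the 5 tests, the exact p-values were 0.75 to 0.9, and the smallest unadjusted p that 3 libraries against 3 allow is 0.1. The difference in miR-30a rested largely on the 4 reads of mmu-miR-30a-5p in Ctrl-sEV replicate 2 and was -0.55 without that library. That in miR-30e was -3.56 without Ctrl-sEV replicate 2 and -0.94 without Ctrl-sEV replicate 3. The 3p arms of miR-30d and miR-30b had 0 reads in Ctrl-sEV, so their ratios there rested on the 0.5 read added. With 1 read added, the difference in miR-30d was -1.0. For reference, 86 hairpins of the table had both arms listed and at least 10 reads over both in each library. Their 3p share was higher in all Cis-sEV than in all Ctrl-sEV libraries in 23.3% and lower in 10.5%, while the miR-30 hairpins among them counted 0 in either direction. Only 14 of the 86 had reads of both arms in every library. Several of those with a higher share, such as miR-100, had a 3p share of 0 in Ctrl-sEV, where libraries held fewer reads. The part of read depth in these percentages was not tested. In those 86, the 5p arm had more reads in every library in 51, the 3p arm in 26, and 9 were mixed.

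**Figure D5:**
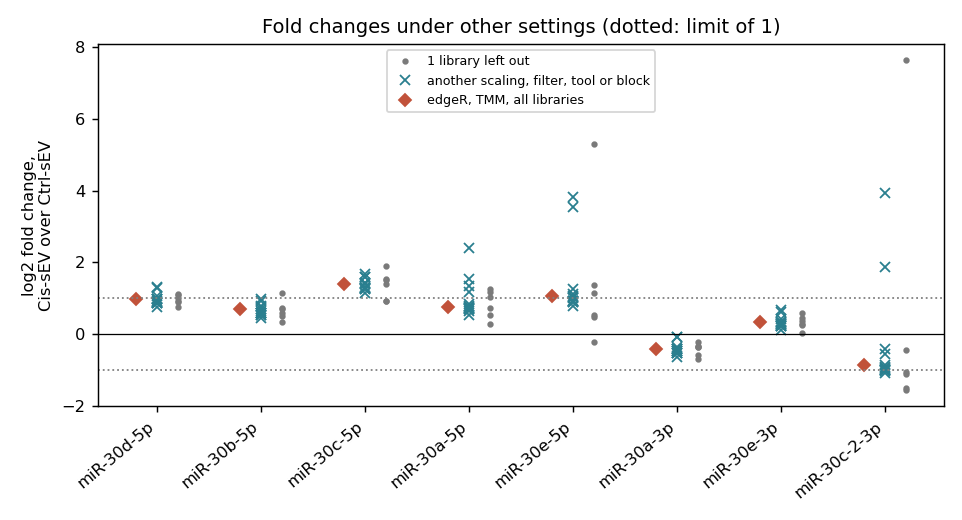
Log2 fold change of the 8 tested miR-30 arms with edgeR and TMM scaling on all libraries (diamonds), with other scalings, filters, tools or the replicate block (crosses) and with 1 library left out (dots). miR-30d-5p stays between 0.75 and 1.32 on either side of the limit of 1, miR-30a-3p stays below 0, and miR-30e-5p and miR-30c-2-3p reach from -0.22 to 5.30 and from -1.55 to 7.62.

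The miRNAs outside the family whose levels moved most like the summed 5p arms were named by Pearson's r of log2(CPM + 1) over the 6 libraries. The highest was mmu-miR-191-5p with r = 0.987, at 16613 ± 2401 CPM in Cis-sEV and 10352 ± 990.1 CPM in the 3 Ctrl-sEV libraries (mean ± SD). Next came mmu-miR-195a-5p, mmu-miR-124-3p, mmu-miR-674-3p and mmu-miR-369-3p, with r of 0.979 to 0.981, each with 23 to 129 reads in a Cis-sEV library and 0 in every Ctrl-sEV library. Of the 343 miRNAs compared, 40 had r over 0.95. The 6 points share the split into groups of 3, so these values describe the libraries and carry no test.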

How the data were processed

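The authors isolated total RNA from sEV, cut out the 18–30 nt fraction by PAGE, sequenced it on the DNBSEQ platform, aligned clean reads to GRCm38.p6 with Bowtie2 and annotated them with AASRA and cmsearch, taking miRBase first. Tool versions are not given in the sources used here. The deposited values are raw read counts per mature miRNA in 6 libraries, not normalized. The authors' group means in the same table were not used, and no other value column was left out.

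Samples were grouped by their titles. edgeR 4.0.16 in R 4.3.3 was used for the quasi-likelihood test with TMM factors after filterByExpr (minimum 10 reads, 15 in total) on all miRNAs, with Benjamini-Hochberg adjustment over the 353 tested. Standard errors are the log2 fold change over the root of F. The limits on adjusted p (0.05) and log2 fold change (1) are those of the study's methods. Alternatives used DESeq2 1.42.0, limma 3.58.1 (voom) and an MA-plot test on summed counts, other scalings and filters, the replicate number as a block, and each library left out. Arm ratios used exact permutation tests in scipy 1.17.1, and figures matplotlib 3.10.9. The scripts were tested on simulated counts. Named are the members, other arms of the family, miRNAs with the miR-30 seed, the 5 most similar miRNAs and the cell type markers, of which mmu-miR-142a-3p was not analysed here. The members and lists were chosen with earlier results of these data known. P-values measure the spread between libraries of pooled explants, and libraries of a group differed by more than sampling noise (chi-square per degree of freedom 66.3 to 115).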

Additional observations from a re-analysis of the deposited data

How the results depend on the processing

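The members called higher numbered 0 with edgeR and 4 with the MA-plot test on summed counts. Only mmu-miR-30d-5p was called higher with total miRNA reads, with at least 1 read in each of 3 libraries, and with no fold limit. With 1 library left out the number was 0 to 2. The 2 include mmu-miR-30c-2-3p after removal of the Ctrl-sEV library that held its reads. It then had 0 reads in Ctrl-sEV and passed the filter through Cis-sEV alone, so that call supports nothing. Members called lower numbered 0 under every alternative run. Over all miRNAs, 83 were called higher and 23 lower. With total miRNA reads 11 were lower (97 higher), with no filter 14 were lower, limma-voom called 30 and 13, and the MA-plot test 159 and 56. With 1 library left out, 40 to 144 were higher and 11 to 30 lower. The replicate block left 13 higher and 11 lower. Its numbers did not pair the libraries (r of the deviations -0.0494, -0.176 and -0.0147), and mmu-miR-30d-5p kept 0.98 with an adjusted p of 0.0462.

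The log2 fold change of mmu-miR-30c-2-3p turned to 1.86 with limma-voom and 3.93 with the block, and ran from -1.55 to 7.62 with 1 library left out. That of mmu-miR-30e-5p ran from -0.22 to 5.30. The log2 3p to 5p ratio of miR-30c-2 turned to -0.35 with 1 read added and to -1.93 as a ratio of mean 3p reads per 100 5p reads, where miR-30a moved from -2.41 to -4.74. With 1 library left out it ran from -1.49 to 2.29, and that of miR-30d from -1.70 to 0.72. The cause was not tested. Per 100 5p reads, miR-30d and miR-30e gave no value, since a library or group had 0 reads. The ratio of the 5p share between the groups was 2.46 and lay between 2.20 and 2.80 with 1 library left out, at 1.95 with TMM-scaled library sizes and at 1.82 without the 10 most abundant miRNAs.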
